A study of Mus musculus with 2 samples.

Results

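Transcripts of 10 genes of the CC chemokine family were followed in phagocytes of a mouse tumor: Ccl2, Ccl3, Ccl4, Ccl5, Ccl6, Ccl7, Ccl8, Ccl9, Ccl12 and Ccl24. They were taken by symbol, and each symbol named 1 of the 32285 genes in the count matrices. Both libraries came from a syngeneic fibrosarcoma, a tumor of connective tissue origin, grown subcutaneously in C57BL/6 mice labelled WT and dissociated enzymatically (collagenase B, DNase I) at 37 degrees C over 45 min. A magnetic column split the cells into a flowthrough, labelled iron negative, and an eluate, labelled iron positive. Each fraction gave 1 library by the droplet-based 3' v3 protocol, in which a unique molecular identifier (UMI) counts 1 captured transcript end. The labels name no tumor line, number of mice or pooling, and no fraction from outside a tumor was compared. With 1 library per fraction there is no replicate and no test. The ranges in brackets are exact 95% intervals that cover counting error only, and a ratio of levels always sets the eluate over the flowthrough.

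Chemokines are small secreted proteins that draw cells along a gradient, and the CC group is named for its paired cysteines. They act through G protein-coupled receptors on leukocytes: Ccr2 binds Ccl2, Ccl7 and Ccl12 and brings monocytes out of the bone marrow, and Ccr1 binds several, among them Ccl3, Ccl5, Ccl6 and Ccl9. Ccl24 (eotaxin-2) acts on eosinophils through Ccr3, and mouse Ccl8 acts through Ccr8. Macrophages and monocytes of inflamed tissue and tumors are a known source of these proteins, and fibroblasts are a known source of Ccl2 and Ccl7.

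The flowthrough library held 10124 barcodes and 132796517 UMIs, and the eluate library 13668 barcodes and 129921053 UMIs. After barcodes with over 15% mitochondrial UMIs or under 200 detected genes were left out, 9403 and 12143 cells remained, with a median of 13017 and 7349 UMIs. Phagocytes, gated on macrophage and monocyte markers such as Csf1r, C1qa and Lyz2 and not on chemokines, made up 8685 (92.4%) and 7481 (61.6%) of them, with a median of 13547 and 9870 UMIs. The eluate also held 559 endothelial, 107 pericyte or smooth muscle, 266 mesenchymal and 53 T or NK cells, against 9, 1, 69 and 20 in the flowthrough, and 2061 against 210 cells that passed no gate. Fibroblasts and the fibrosarcoma's own cells cannot be told apart within the mesenchymal gate. The libraries shared 85 barcodes, and leaving these cells out changed no member's direction. The median mitochondrial share of phagocytes was 3.19% in the flowthrough and 2.89% in the eluate.

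On the mouse genome build GRCm38 (mm10), 9 of the 10 genes lie on chromosome 11 in a pair of clusters 1408978 bases apart. The first holds Ccl2 (chr11:82035571-82037453), Ccl7 (chr11:82045712-82047525), Ccl12 (chr11:82101845-82103400) and Ccl8 (chr11:82115185-82116799), all on the plus strand. In the second, Ccl5 (chr11:83525778-83530518), Ccl9 (chr11:83572919-83578636), Ccl6 (chr11:83587882-83593087) and Ccl3 (chr11:83647844-83649355) are on the minus strand and Ccl4 (chr11:83662584-83664683) on the plus strand. Ccl24 stands apart on the minus strand at chr5:135569937-135573049. All 10 are protein-coding genes. Ccl2 and Ccl7 are direct neighbors 8258 bases apart, Ccl9 and Ccl6 are 9245 bases apart, and Ccl3 and Ccl4 point away from each other across 13228 bases. Ccl2 overlaps Gm17268 and Ccl6 overlaps E230016K23Rik on the opposite strand, and a transcript of Ccl9 shares a run of 60 bases with transcripts of 55 other genes. The sources used here do not say whether counting used strand, so the counts of Ccl2 and Ccl6 are uncertain to that degree. The effect of the shared run on the count of Ccl9 was not tested.

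RefSeq promoter sequences were at hand for 5 members, Ccl3, Ccl6, Ccl8, Ccl9 and Ccl12. Of the 10 pairs among them, only Ccl6 with Ccl9 and Ccl8 with Ccl12 shared any run of 10 or more bases within 250 bases before and 50 after the annotated start. Ccl6 and Ccl9 are shown because their levels moved together over phagocyte groups (below), and capitals mark the bases of 3 runs that both hold in the same order. The 250 bases before the start are printed, for Ccl6 at chr11:83593088-83593337 and for Ccl9 at chr11:83578637-83578886, GRCm38.p6, both from the minus strand and 5′ to 3′.
Ccl6: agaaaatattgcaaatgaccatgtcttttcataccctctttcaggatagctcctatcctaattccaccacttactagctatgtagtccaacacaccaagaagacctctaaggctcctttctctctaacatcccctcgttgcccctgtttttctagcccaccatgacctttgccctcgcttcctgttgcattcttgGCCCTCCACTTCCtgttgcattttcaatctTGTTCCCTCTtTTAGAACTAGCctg
Ccl9: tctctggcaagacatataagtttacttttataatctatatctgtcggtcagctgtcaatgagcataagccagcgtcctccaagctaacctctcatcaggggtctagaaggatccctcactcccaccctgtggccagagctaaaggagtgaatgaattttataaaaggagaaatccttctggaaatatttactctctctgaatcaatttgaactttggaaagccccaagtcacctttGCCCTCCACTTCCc
The first run, GCCCTCCACTTCC, begins 55 bases before the start of Ccl6 and 14 before that of Ccl9. The other runs, TGTTCCCTCT and TTAGAACTAGC, lie before the start of Ccl6 but at bases 10 and 21 of the Ccl9 transcript, and so fall outside the printed Ccl9 stretch.

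Ccl12 and Ccl8, neighbors on the plus strand, each carry the letters TATAAA (the TATA box) shortly before the start, in capitals below. The stretches are chr11:82101595-82101844 for Ccl12 and chr11:82114935-82115184 for Ccl8, of the same build and from the plus strand.
Ccl12: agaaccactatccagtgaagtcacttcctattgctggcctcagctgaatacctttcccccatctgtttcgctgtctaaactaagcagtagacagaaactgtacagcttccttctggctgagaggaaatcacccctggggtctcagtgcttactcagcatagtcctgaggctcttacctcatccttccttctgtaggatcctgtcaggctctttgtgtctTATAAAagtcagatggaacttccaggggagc
Ccl8: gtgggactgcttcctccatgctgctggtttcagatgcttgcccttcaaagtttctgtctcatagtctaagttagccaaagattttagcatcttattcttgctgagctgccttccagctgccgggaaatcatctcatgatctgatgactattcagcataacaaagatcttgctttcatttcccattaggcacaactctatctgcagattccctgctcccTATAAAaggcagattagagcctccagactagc
TATAAA spans bases -31 to -26 in Ccl12 and -32 to -27 in Ccl8. On either strand and at any position of the window, TATAAA was found in 3 of the 5 member promoters and in 13.6% of all 32817 promoters of that length. The third was Ccl9, where the copy nearest the start spans bases -92 to -87, farther from it than in Ccl12 and Ccl8. The interferon response letters GAAA and GAAA with 2 bases between them were in none of the 5 and in 3.43% of all promoters. The letters TGANTCA, a loose form of the AP-1 site with any base at N, were found in Ccl9 alone of the 5, as TGAATCA. They were in 7.81% of all promoters. An NF-kB site was also found in Ccl9 alone of the 5, against 8.46% of all promoters. These matches describe letters in a window and say nothing of binding.

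All 10 chemokines were read mostly from phagocytes in the flowthrough. In both fractions stromal cells held a larger part of Ccl2 and Ccl7 than of all UMIs. In the flowthrough, phagocytes held between 82.9% (Ccl2) and 98.7% (Ccl24) of a member's UMIs, and 94.6% of the UMIs of all genes. In the eluate, where phagocytes held 65.4% of all UMIs, they held 47.2% of Ccl2, 65.7% of Ccl7 and 68.1% of Ccl3, and 72.0% to 89.1% of the others. Endothelial, pericyte or smooth muscle, and mesenchymal cells of the eluate together held 32.0% of its Ccl2 and 17.5% of its Ccl7, against 15.3% of all its UMIs. For the other 8 members that share was 0.407% to 2.61%. Mesenchymal cells held 19.5% of the eluate's Ccl2 and 15.3% of its Ccl7, pericyte or smooth muscle cells 5.44% of Ccl2, and endothelial cells 7.10% of Ccl2. Cells that passed no gate held 27.7% of the eluate's Ccl3 and 22.3% of its Ccl4, against 17.95% of all UMIs.

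**Figure D1:**
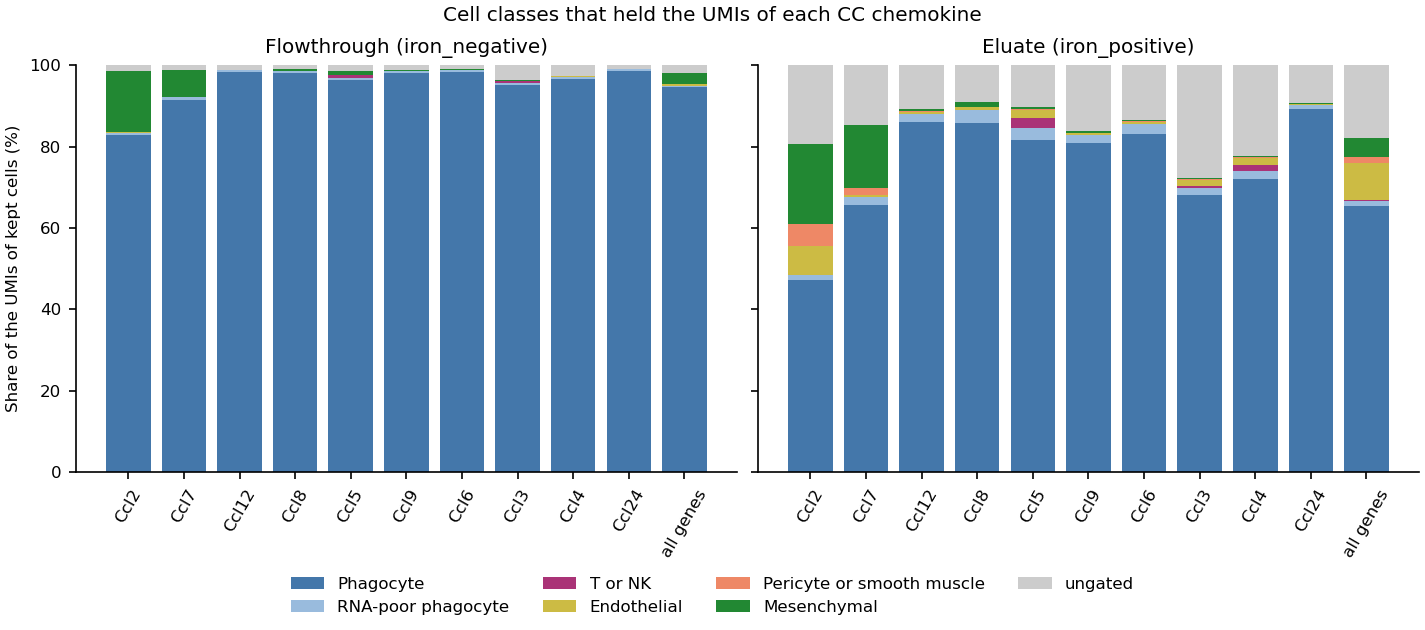
Stacked bars show the share (%) of each gene's UMIs over all kept cells that fell in each gated class, in the flowthrough (left) and the eluate (right), with the share of the UMIs of all genes as the last bar. In the eluate the phagocyte share was lowest for Ccl2, at 47.2%, and highest for Ccl24, at 89.1%.

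Ccl2, the main monocyte attractant, and Ccl7, which shares its receptor, were at higher levels in mesenchymal cells than in phagocytes. Ccl2 stood at 1274 counts per 1000000 UMIs of the same cells (CPM) in mesenchymal cells of the flowthrough and 1552 (1520 to 1585) in those of the eluate, against 211 and 259 in phagocytes. The eluate's mesenchymal level was 5.99 times (5.84 to 6.14) that of its phagocytes for Ccl2 and 3.38 times (3.28 to 3.49) for Ccl7, which stood at 552 and 908 CPM. Pericyte or smooth muscle cells of the eluate had 1197 CPM (1150 to 1245) of Ccl2, 4.62 times the phagocyte level, and 274 CPM of Ccl7, 1.02 times that level (0.937 to 1.11). Endothelial cells had 280 CPM of Ccl2 but 15.1 CPM of Ccl7.

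The proportion between the neighbors Ccl2 and Ccl7 differed by cell class. In eluate cells there were 0.966 UMIs of Ccl2 for each UMI of Ccl7 in phagocytes, 1.71 (1.65 to 1.77) in mesenchymal cells, 4.37 (3.98 to 4.79) in pericyte or smooth muscle cells and 18.5 (15.8 to 21.6) in endothelial cells. These intervals do not overlap.

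For Ccl6, Ccl8 and Ccl9, which myeloid cells are known to make, the proportions in endothelial cells were close to those of phagocytes. Endothelial cells of the eluate had 2.43 UMIs (2.23 to 2.65) of Ccl8 for each of Ccl6, pericyte or smooth muscle cells 2.62 (2.157 to 3.202) and phagocytes 2.59, with Ccl6 at 65.1, 70.01 and 1369 CPM. The proportion of Ccl9 to Ccl6 was likewise 0.360 in endothelial cells and 0.350 in phagocytes. The part of free RNA in these low levels was not tested. Mesenchymal cells, with 722 CPM of Ccl8, had 9.06 UMIs (8.22 to 10.01) of Ccl8 for each of Ccl6, outside the range of the other classes.

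Ccl5, Ccl4 and Ccl3, which activated lymphocytes are known to make, were high in T or NK cells. The 53 T or NK cells of the eluate had 7084 CPM (6766 to 7413) of Ccl5, 10.00 times (9.54 to 10.5) the level of phagocytes, and 1232 CPM (1101 to 1374) of Ccl4, 6.16 times that level. Those of the flowthrough, only 20 cells, had 2570 CPM of Ccl5 and 223 CPM of Ccl4. For Ccl4 this was 1.36 times (0.961 to 1.86) the level of phagocytes. Ccl3 was at 212 CPM in T or NK cells of the flowthrough and 160 in those of the eluate. Because these cells were few, they held only 2.62% of the eluate's Ccl5 and 1.42% of its Ccl4.

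Ccl24 and Ccl12 were low in the gated classes other than phagocytes, as were Ccl6 and Ccl9. Ccl24 had 0 UMIs in the 53 T or NK cells of the eluate, which allows a level of up to 11.4 CPM (3 counts), and stood at 1.58, 1.96 and 1.77 CPM in endothelial, pericyte or smooth muscle, and mesenchymal cells, against 85.6 CPM in phagocytes. Ccl12 stood at 5.39 to 14.7 CPM in the 4 other classes of the eluate and at 192 CPM in phagocytes. RNA-poor phagocytes, which carried the markers but under 1500 UMIs, were kept apart and had 7449 CPM of Ccl8 and 2295 CPM of Ccl6 in the eluate.

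**Figure D2:**
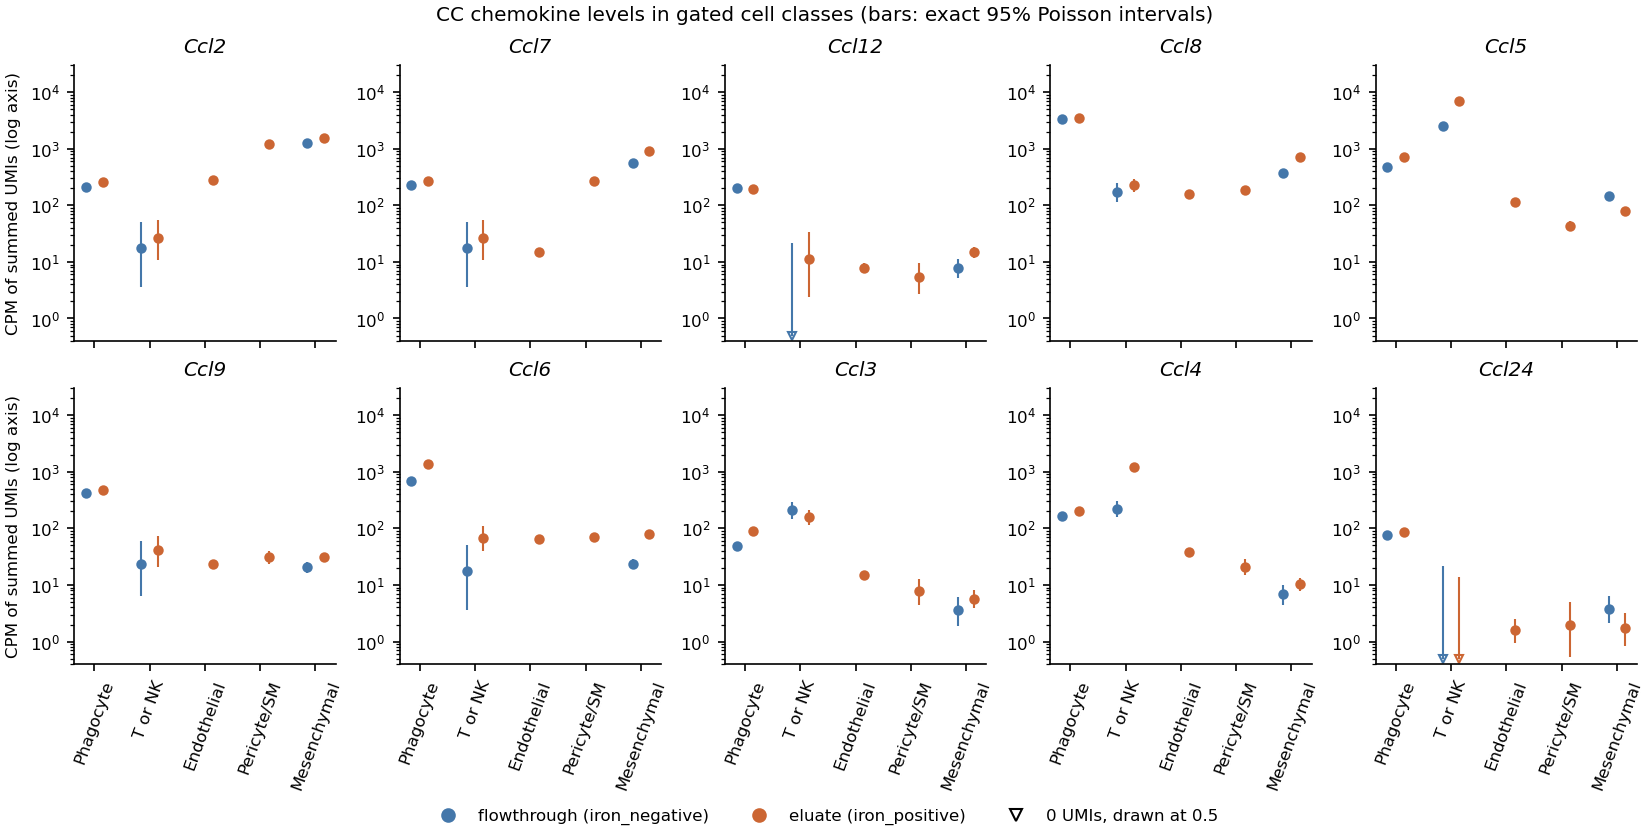
CPM (log axis) of each CC chemokine in gated classes of the flowthrough (blue) and the eluate (orange), with exact 95% Poisson intervals, open triangles for 0 UMIs, and classes of under 10 cells not drawn. Ccl2 and Ccl7 are higher in mesenchymal cells than in phagocytes. Ccl5 is highest in T or NK cells, as is Ccl4 in the eluate. Ccl24 stands at 85.6 CPM in eluate phagocytes and at under 2 CPM in the stromal classes of the eluate.

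Within phagocytes, most members formed a wide gradient over states, and many stood highest in the same states. Phagocytes were divided by 13 marker scores that left all chemokines out, and a state is named here for the markers that define it. A state is a range of a score, not a cell type: 751 flowthrough and 488 eluate phagocytes lay within 0.1 of the limit. The Cd209f Cd163 Lyve1 state, whose markers are known from tissue-resident macrophages, held 90 phagocytes of the flowthrough and 385 of the eluate. The Retnla Cbr2 state, marked by genes of alternative activation, held 651 and 439. The 2 states are not independent, since cells of the Cd209f state also scored high on the Retnla markers, with a median standardized score of 1.99 in the flowthrough and 1.67 in the eluate, over the limit of 1.0. Together the 10 members made up 21473 CPM in the Cd209f state of the flowthrough and 21852 CPM in that of the eluate, against 5770 and 6450 CPM in the other phagocytes of the same library (the sum is dominated by Ccl8).

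In the Cd209f state, 8 of 10 members in the flowthrough and 7 of 10 in the eluate were at least 1.5-fold above the other phagocytes, where 14.1% and 15.4% of all measured genes were. In the Retnla state, 8 of 10 were so in each library, against 8.89% and 12.1% of genes. The exceptions in the Cd209f state were Ccl5 and Ccl24 in the flowthrough, and those plus Ccl12 in the eluate.

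Ccl2 stood at 1109 CPM (1049 to 1172) in the Cd209f state, 761 in the Retnla state and 55.7 in the MHC class II state of the flowthrough, its highest, next and lowest values. In the eluate the same states had 762, 713 and 51.9 CPM, and the top pair did not differ beyond their intervals. Ccl7 followed this order closely, with 1317, 1002 and 50.7 CPM in the flowthrough and 1022, 983 and 54.3 CPM in the eluate. Both genes thus spanned 14.7 to 26.0-fold between their highest and lowest state.

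Ccl8, known as a product of skin macrophages, had its highest level in the same pair of states. It reached 11345 CPM (11150 to 11542) in the Cd209f state and 9059 in the Retnla state of the flowthrough, and 14357 and 13827 CPM in those of the eluate. Its lowest level was in the Il1r2 Ifitm1 state, at 774 and 485 CPM, so the span was 14.7-fold in the flowthrough and 29.6-fold in the eluate. In the eluate the third state, Heat shock, had 4612 CPM of Ccl8, far below the top pair.

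Ccl6 and Ccl9, both ligands of Ccr1, were high in the Cd209f, Retnla, Mmp12 Cd36 and Mmp9 Pdpn Arg1 states. In the flowthrough, Ccl6 had 4826 CPM in the Cd209f state, 3473 in the Retnla state and 1773 in the Mmp12 state, and Ccl9 had 1556, 1278 and 771 CPM there. In the eluate the 3 states lay closer together, at 3088, 2970.0 and 3150 CPM for Ccl6 and 723, 834 and 858 CPM for Ccl9. Both genes were lowest in the MHC class II state of each library, where Ccl6 had 252 and 278 CPM. The Mmp12 Cd36 state, with macrophage elastase and a lipid scavenger receptor among its markers, held 0.956% of flowthrough phagocytes and 13.1% of eluate phagocytes.

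Ccl4 and Ccl12 stood highest in the Type I interferon state, which is marked by genes induced by type I interferon. Ccl12 had 588 CPM (566 to 610) there in the flowthrough and 597 (571 to 625) in the eluate, while the next state, Retnla, had 361 and 330.0 CPM. Ccl4 had 527 and 492 CPM in the Type I interferon state, and the Heat shock state followed with 497 and 468 CPM and overlapping intervals. Ccl3, which is 13228 bases from Ccl4, was highest in the Cd209f state, with 201 CPM in the flowthrough and 351 in the eluate. Next came the Heat shock state, with 175 and 198 CPM. In the flowthrough the intervals of these states overlapped, and with CPM averaged per cell Heat shock was the highest there. The summed level of 12 immediate early genes, which cell dissociation is known to raise, was 8846 to 9640 CPM in the Cd209f, Retnla and Heat shock states and 3850 to 7199 CPM in the others. Its part in the levels of Ccl3 and Ccl4 was not tested.

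Ccl5 had a pattern of its own. It was highest in the Nos2 state, which is marked by inducible nitric oxide synthase, at 1951 CPM (1910 to 1992) in the flowthrough and 2235 (2191 to 2279) in the eluate. It was lowest in the Fcrls Cx3cr1 state, at 144 and 138 CPM. In the flowthrough the Ly6c2 Plac8 state came next, with 1247 CPM, and the Retnla state had 202 CPM. The 14 T or NK marker genes summed to 3.57 CPM in phagocytes of the flowthrough and 3.39 in those of the eluate. The gate itself left out cells with 4 or more of these markers. The part of T or NK cells in the Ccl5 levels of phagocytes was not tested.

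Ccl24, the eotaxin, was highest in monocyte-like cells. It stood at 263 CPM (247 to 279) in the Ly6c2 Plac8 state of the flowthrough and 339 (318 to 361) in that of the eluate, and the Il1r2 Ifitm1 state followed with 169 and 176 CPM. Ly6c2 and Plac8 are markers of newly arrived monocytes. In their state Ccl5 in the flowthrough and Ccl4 in the eluate were also at least 1.5-fold above the other phagocytes. In the Cd209f state, where Ccl2, Ccl7 and Ccl8 were highest, Ccl24 stood at 59.6 and 24.97 CPM, the latter its lowest value.

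The states poor in chemokines were also shared by most members. Of the 13 steps between neighboring states in a gene's order, between 1 (Ccl8 in the flowthrough) and 11 (Ccl3 in the flowthrough) had overlapping intervals. In the Fcrls Cx3cr1 state 9 of 10 members were at least 1.5-fold below the other phagocytes in each library, Ccl12 being the exception, while 4.12% of measured genes in the flowthrough and 5.52% in the eluate were. In the MHC class II state 8 of 10 were so in each library, against 6.29% and 10.3% of genes, and Ccl5 and Ccl24 were the exceptions. In the Cycling state 6 of 10 members of the flowthrough and 8 of 10 of the eluate were lower, against 4.18% and 7.17% of genes. The Il1r2 Ifitm1 state had the lowest summed level of the 13 states, 2685 CPM in the flowthrough and 2450 in the eluate. In it 5 of 10 and 8 of 10 members were lower by at least 1.5-fold, against 9.02% and 9.85% of genes. Ccl24 was higher there by that much in each library.

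**Figure D3:**
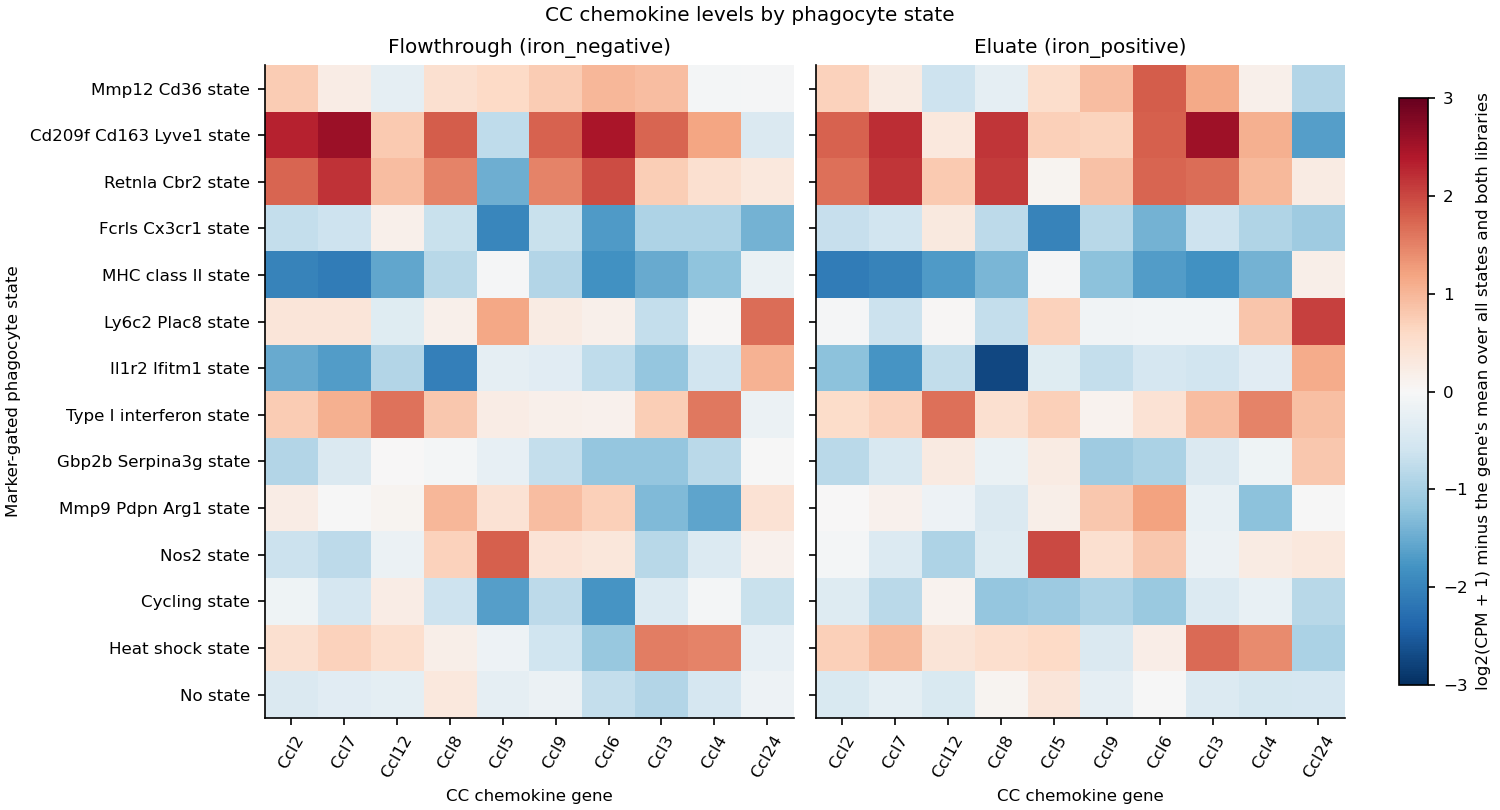
Each square is log2(CPM + 1) of a gene in a phagocyte state minus that gene's mean over all states and both libraries (color scale from -3 to 3), for the flowthrough (left) and the eluate (right). Red squares of the Cd209f and Retnla rows cover Ccl2, Ccl7, Ccl8, Ccl9, Ccl6, Ccl3 and Ccl4 in both libraries, Ccl5 is highest in the Nos2 row, and Ccl24 in the Ly6c2 Plac8 row.

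Across the 13 states and the phagocytes with no state, each library apart (28 points that share 2 libraries), the neighbors Ccl2 and Ccl7 ran in parallel, with Pearson's r = 0.97 of log2(CPM + 1). Ccl6 and Ccl9 had r = 0.94, or 0.99 within the flowthrough and 0.97 within the eluate, and Ccl3 and Ccl4 had r = 0.85. Some pairs that are not neighbors had higher values than Ccl3 and Ccl4, with 0.88 for Ccl7 and Ccl8 and 0.86 for Ccl2 and Ccl3. Some neighbors had lower ones, with 0.60 for Ccl12 and Ccl8 and 0.28 for Ccl5 and Ccl9. The median over the 45 pairs was 0.53. Without the Cd209f and Retnla states, 24 points gave 0.94 for Ccl2 and Ccl7, 0.92 for Ccl6 and Ccl9, and 0.84 for Ccl3 and Ccl4. The pair Ccl2 and Ccl6 then went from 0.82 to 0.66, and Ccl12 and Ccl8 from 0.60 to 0.53. Ccl5 went the other way, from 0.28 to 0.60 with Ccl9 and from 0.38 to 0.69 with Ccl6. These values are descriptions of a few groups of cells.

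The number of Ccl6 UMIs per Ccl9 UMI nevertheless differed between the libraries. It was higher in the eluate in 14 of the 14 groups, by 1.09-fold in the Ly6c2 Plac8 state to 2.23-fold in the Heat shock state, with a median of 1.44-fold. The proportion ran from 0.957 to 3.102 over the groups of the flowthrough and from 1.29 to 4.27 over those of the eluate.

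**Figure D4:**
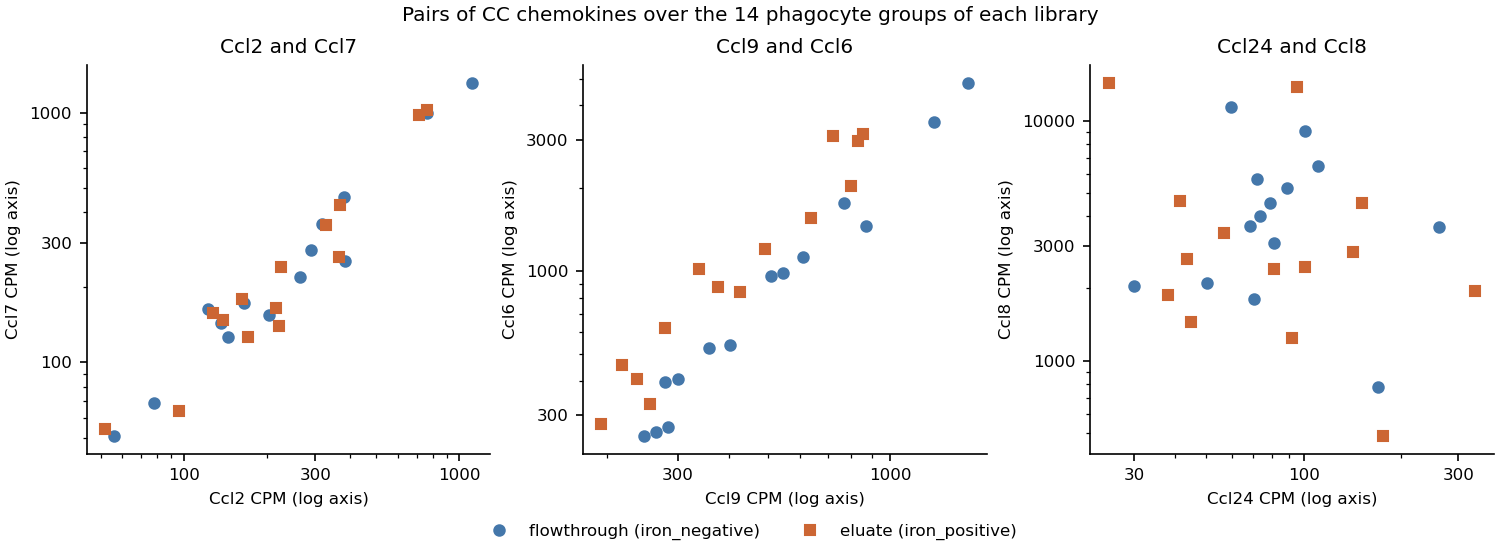
Each point is 1 of the 13 phagocyte states or the phagocytes with no state, in the flowthrough (blue circles) or the eluate (orange squares), placed by the CPM of a pair of genes on log axes. Ccl2 and Ccl7 lie on 1 line, with r = 0.97, the eluate points of Ccl6 lie above the flowthrough points at the same Ccl9 level, and Ccl24 and Ccl8 form no line.

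The genes whose pattern over the 28 points was most like that of a member, among genes outside the family at 50 CPM or more in some group, differed between members. For Ccl3 they were Gdf15 (r = 0.91), Plk2 (0.89) and the immediate early gene Egr1 (0.88), and for Ccl4 they were Atf3 (0.87), Tnf (0.83) and Jun (0.82). Those of Ccl6 were the clotting factor gene F13a1 (0.97), the cathepsin gene Ctsl (0.94) and Tmem8 (0.94), and those of Ccl9 were Ahnak (0.94), Ctsl (0.92) and F13a1 (0.92). For Ccl2 they were Epb41l1 (0.92), B3gnt2 (0.90) and Ednrb (0.90), and for Ccl7 they were B3gnt2 (0.93), Epb41l1 (0.92) and Cd163 (0.90), a marker that the states used. Ccl8 was most like Atp6v1b2 (0.90), Rgl1 (0.89) and Ctsb (0.89). For Ccl12 they were Morc3 (0.92), Ch25h (0.86) and Peli1 (0.83), for Ccl5 Npc2 (0.85), Tmbim4 (0.81) and Ptgs2 (0.81), and for Ccl24 Atp11b (0.86), Ltb4r1 (0.83, also a state marker) and Jarid2 (0.82).

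Single phagocytes held a few members each. When each phagocyte was thinned to 3000 UMIs, which left out 382 flowthrough and 860 eluate cells with fewer, the median cell held UMIs of 3 members in the flowthrough and 4 in the eluate. At least 5 members were found in 25.8% and 32.8% of cells, and none in 2.28% and 2.16%. Ccl8 was found in 77.6% of flowthrough and 73.2% of eluate phagocytes at this depth, Ccl6 in 57.4% and 71.6%, and Ccl3 in 8.51% and 14.1%. Without thinning, the eluate shares were 91.8% for Ccl8 and 25.9% for Ccl3. The thinned share of Ccl8 was 29.5% in eluate endothelial cells, and that of Ccl3 was 2.44% there.

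Most of the UMIs came from a minority of cells, and the degree differed between members. The 10% of thinned phagocytes with the most UMIs of a gene held 45.0% of Ccl9 in the flowthrough and 44.5% in the eluate, the most even member. They held 58.3% and 58.7% of Ccl8 and 85.9% and 81.5% of Ccl4. For Ccl24, which 10.01% and 9.39% of cells carried, they held practically all, as they did for Ccl3 in the flowthrough (8.51% of cells). With so few cells carrying a gene, that value is fixed by detection at this depth. In the flowthrough, single cells held up to 114 UMIs of Ccl4 and 139 of Ccl5 among 3000. In the eluate, Ccl4 was found in 45.2% of the cells with Ccl3 and in 17.9% of those without, and Ccl7 in 51.3% of the cells with Ccl2 and in 18.2% of those without. For Ccl5 and Ccl2 no such link was seen, with 32.6% of Ccl5-positive and 33.9% of Ccl5-negative cells carrying Ccl2.

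Between the fractions, phagocytes of the eluate had higher levels of Ccl6, Ccl3 and Ccl5, and the other 7 members differed by less than 1.25-fold. Ccl6 was at 696 CPM in the flowthrough and 1369 in the eluate, a ratio of 1.97 (1.95 to 1.99). Ccl3 was at 49.2 and 89.6 CPM (ratio 1.82, 1.76 to 1.88), and Ccl5 at 470.3 and 709 CPM (ratio 1.51, 1.49 to 1.52). Thus 3 of 10 members were higher by at least 1.5-fold and 0 lower, where 2.15% of all 7711 measured genes were higher and 0.506% lower by that much. Ccl5 lay at that limit and was under it in 9 of 24 alternative settings, among them the loss of the Mmp12, Cd209f, Retnla or Fcrls state. The median log2 ratio was 0.27 over the members and -0.11 over all measured genes.

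Ccl2 went from 211 to 259 CPM (1.23), Ccl4 from 165 to 199.96 (1.22) and Ccl7 from 225 to 268 (1.19). Ccl9 went from 422 to 479 CPM (1.14) and Ccl24 from 77.6 to 85.6 (1.103). Ccl8, at 3395 and 3544 CPM, gave a ratio of 1.04, and Ccl12, at 204 and 192 CPM, was the only member below 1, at 0.941 (0.922 to 0.960). The direction of Ccl8 turned in 5 of 24 settings and that of Ccl12 in 1, when scaled by the median ratio over genes. Mesenchymal markers in phagocytes summed to 26.9 CPM in the flowthrough and 83.3 in the eluate, with none of the 12 at 0, which is 0.234% and 0.334% of their level in mesenchymal cells. Their part in the Ccl2 and Ccl7 levels was not tested. Neutrophil markers summed to 48.5 and 91.6 CPM over 6 genes, and their part in the Ccl3 and Ccl6 levels was not tested.

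Over all kept cells, the same ratios mixed phagocytes with the other classes. Ccl3 (1.76) and Ccl6 (1.61) passed 1.5-fold, against 9.29% of genes, and Ccl2 was just under it at 1.49, with 241 and 359 CPM. None was lower by that much, against 3.98% of genes. Ccl5 was at 1.23, Ccl7 at 1.15 and Ccl4 at 1.13. Ccl8 (0.825), Ccl24 (0.845), Ccl9 (0.955) and Ccl12 (0.744) were lower in the eluate, whose kept cells held a smaller share of phagocytes.

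The shares of the states also differed between the fractions, so each level was recomputed with either the shares or the levels exchanged. With the flowthrough's level in each state but the eluate's shares of states, Ccl6 would be at 1100 CPM, a ratio of 1.58, and with the eluate's levels but the flowthrough's shares it would be at 846 CPM, a ratio of 1.22. For Ccl3 the corresponding ratios were 1.34 and 1.33, and for Ccl5 they were 1.26 and 1.24. For Ccl2 the shares alone gave 1.35 and the levels alone 0.958, for Ccl8 1.24 and 0.890, and for Ccl9 1.31 and 0.853. With the 13 states and the rest weighted equally, 0 of 10 members passed 1.5-fold: Ccl3 was at 1.43, Ccl5 at 1.21, Ccl4 at 1.11, Ccl6 and Ccl24 at 1.09, Ccl12 at 0.940, Ccl8 at 0.916, Ccl7 at 0.906, Ccl2 at 0.894 and Ccl9 at 0.806.

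Within single states the members went different ways. Ccl3 was higher in the eluate in 13 of 14 groups, with 10 intervals above 1 and 0 below, from 0.793 (0.611 to 1.02) in the MHC class II state to 2.19 (1.80 to 2.68) in the Mmp9 Pdpn Arg1 state. Ccl6 was higher in 11 groups, and Ccl5 in 9, with its largest ratio, 2.92, in the Retnla state, where it went from 202 to 589.5 CPM. Ccl8 was lower in 11 groups, down to 0.372 in the Mmp9 Pdpn Arg1 state (6467 to 2404 CPM), but higher in the Retnla state, at 1.53. Ccl9 had 10 intervals below 1 and 2 above, and its lowest ratio, 0.465, was in the Cd209f state. Ccl7 stood at 0.495 in the Ly6c2 Plac8 state, with 283 and 140 CPM. Since each state comes from 1 library per fraction, these ratios compare 2 libraries and not the fractions.

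**Figure D5:**
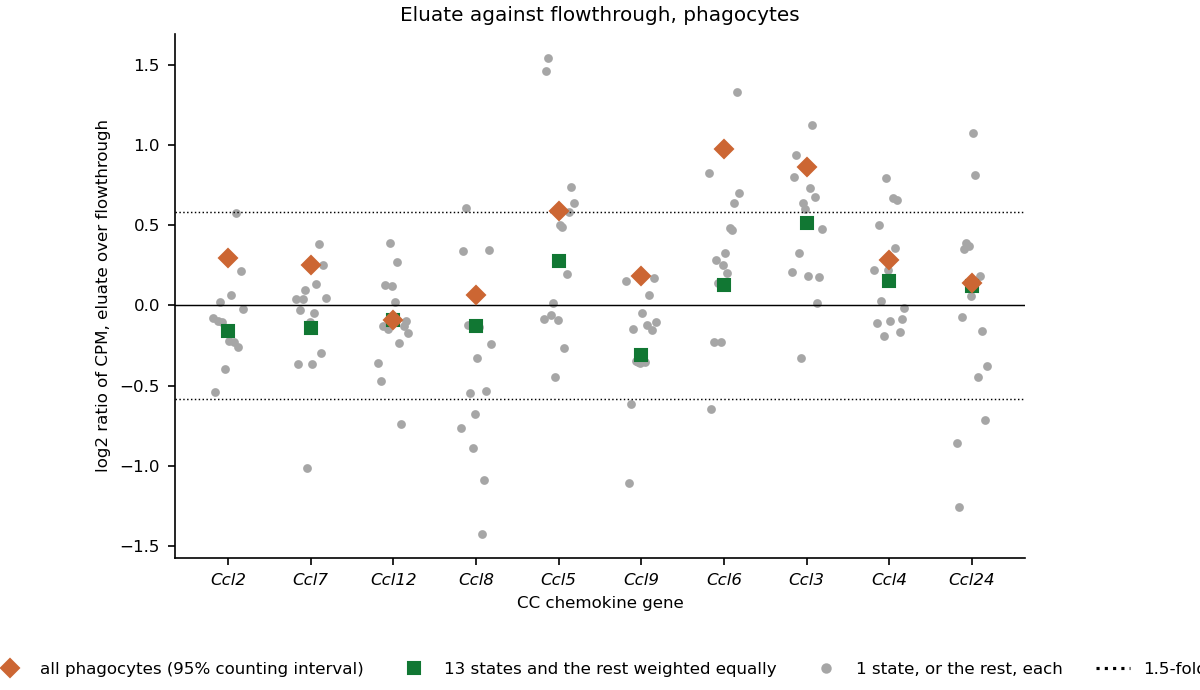
Log2 ratio of CPM, eluate over flowthrough, for each CC chemokine in all phagocytes (diamonds, with 95% counting intervals that are mostly smaller than the symbol), with the 13 states and the rest weighted equally (squares), and in each of these 14 groups (grey points). Dotted lines mark 1.5-fold: Ccl6, Ccl3 and Ccl5 are past it in all phagocytes, and no member is with equal weights.

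Receptors of these chemokines were also read from phagocytes, and none of those described here passed 1.5-fold between the fractions. Ccr2, the receptor of Ccl2, Ccl7 and Ccl12, was at 155 CPM in the flowthrough and 107 in the eluate, a ratio of 0.688 (0.671 to 0.706). Ccr1 was at 309 and 271 CPM, and the atypical receptor Ccrl2 at 194 and 191 CPM. By state, Ccr2 was at 372 and 354 CPM in the Ly6c2 Plac8 state, where Ccl24 was highest, and at 74.5 and 15.9 CPM in the Cd209f state, where Ccl2 and Ccl7 were. Ccr3, the receptor of Ccl24, stood at 0.566 and 0.561 CPM.

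Of 11 other CC chemokine genes, Ccl25 alone reached 10 CPM in phagocytes of a library, at 10.9 in the flowthrough and 9.53 in the eluate. Among 16 genes known to respond to NF-kB, 15 were measured, of which 2 were higher in the eluate by at least 1.5-fold and 0 lower, where 2.15% of all measured genes were higher and 0.506% lower. The 4 with the most UMIs were Il1b (619 and 590 CPM), Cxcl2 (433 and 760 CPM), Nfkbia (261.2 and 260.9 CPM) and Cd83 (229 and 163 CPM). Of the 12 immediate early genes, 0 passed 1.5-fold in either direction, with the same shares over all genes. Egr1 lay just under that limit, at 81.6 CPM in the flowthrough and 122 in the eluate (ratio 1.4999, 1.46 to 1.54). The summed level of the 12 genes was 5489 CPM in the flowthrough and 5667 in the eluate.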

How the data were processed

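Single-cell 3' v3 libraries of 1 magnetic flowthrough and 1 eluate were analyzed. The deposited values are raw UMI counts for each gene in each barcode, which the authors made with Cell Ranger on mm10. Its version is 3.1.0 in the submitters' processing notes and as 5.0.0 per the file headers, so the one used is open. No deposited barcode had under 500 UMIs. Strand use and annotation release are not given in the sources here.

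Cells with at most 15% mitochondrial UMIs and at least 200 genes were kept. A phagocyte had 4 or more of the phagocyte markers, with these making up at least 1.0% of its UMIs, at least 1500 UMIs and fewer than 4 markers of any other lineage (3 for rare lineages). Other classes needed 4 markers of their own (6 for pericytes) and a phagocyte marker share under 0.6%. States were scored as the mean log2(CP10k + 1) of their markers, standardized with both libraries weighted equally. A cell took its highest score if that was 1.0 or more with at least 2 markers detected (for Nos2, at least 2 UMIs). Limits were set on marker distributions. No doublet caller was run. Cells with markers of another lineage (57 and 377) were left out of phagocytes, and doublets of phagocytes remain.

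UMIs were summed per class and library and scaled to CPM. Intervals are exact Poisson or, for ratios, conditional binomial (Clopper-Pearson), and the ratio code was tested on simulated data. A gene was measured at 10 CPM or more in either library. Sequence tables were RefSeq's for GRCm38.p6, positions came from GENCODE for the same build, and 32158 of 32285 gene IDs matched. All members were named, with receptors (1 is not reported here) and other CC chemokines at 10 CPM or more, the 4 pathway genes with the most UMIs per list, and the 3 most alike genes per member. The members and lists were chosen with earlier results of these data known. Alternatives changed the gates, scaling, weighting, depth and states included. Python 3.11.15 was used with pandas 2.3.3, scipy 1.17.1, matplotlib 3.10.9 and numpy 2.4.6.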

Additional observations from a re-analysis of the deposited data

Results flagged for a closer look

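Within phagocyte states, 3 members lay clearly above the flowthrough in one state of the eluate and clearly below it in another. Ccl6 had a ratio of 2.51 in the Heat shock state (406 to 1019 CPM) and of 0.640 in the Cd209f Cd163 Lyve1 state (4826 to 3088 CPM). Ccl8 had a ratio of 1.53 in the Retnla Cbr2 state and of 0.372 in the Mmp9 Pdpn Arg1 state. Ccl24 had a ratio of 2.10 in the Type I interferon state (71.9 to 151 CPM) and of 0.419 in the Cd209f state (59.6 to 24.97 CPM). The differences between states were not tested, since each state comes from 1 library per fraction.

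Barcodes left out for over 15% mitochondrial UMIs also carried chemokine UMIs. The 10 members summed to 1766 CPM in 720 such barcodes of the flowthrough and to 2475 CPM in 1522 of the eluate, against 5764 and 5835 CPM in the kept cells.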

How the results depend on the processing

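No paired analysis was possible because each fraction has 1 library. No alternative lowered a member by 1.5-fold. The count of 3 members higher by at least 1.5-fold in phagocytes was 0 with states weighted equally and 2 to 3 under every other alternative, since Ccl5 fell below 1.5-fold with CPM averaged per cell, with thinning to 1000 UMIs, and without the Mmp12, Cd209f, Retnla, Fcrls, Cycling or Heat shock state. The median log2 ratio of 0.27 was 0.015 with states weighted equally, 0.18 with CPM averaged per cell, 0.22 with thinning, 0.30 with a stricter phagocyte gate and 0.37 when scaled by the median ratio over genes. Of the leave-outs of a state, which were chosen after seeing the data, it was 0.20 without the Cd209f, 0.33 without the Retnla, 0.19 without the Fcrls, 0.22 without the MHC class II, 0.31 without the Type I interferon and 0.31 without the Cycling state. The signs of Ccl2, Ccl7, Ccl8, Ccl9 and Ccl12 changed under some of the 24 alternatives, and those of the other 5 members under none. A stricter state limit kept the highest state in 15 of 20 cases: in the eluate, Retnla became the highest for Ccl2, Ccl6, Ccl7, Ccl8 and Ccl9. With CPM averaged per cell it was kept in 18, and Ccl4 in the eluate's Type I interferon state was then 1.59 times as high.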
